A study of Mus musculus with 20 samples.

Results

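The transcriptional response that CD8+ T cells made to IL-21 receptor agonists at every dose tested was assembled from 2 RNA-sequencing experiments of 10 libraries each. A gene belonged to it when its level lay on the same side of the unstimulated cells of its own experiment in all 8 treated groups. Of 14530 genes tested, 5672 met this condition, 2513 higher with cytokine (17.3%) and 3159 lower (21.7%). Of these, 5416 (37.3% of those tested) also passed the test of the 16 treated against the 4 unstimulated libraries, 2373 higher and 3043 lower, and these are called shared genes in the following. Socs3, Bcl3, Gzma, Prf1, Prdm1 and Il10 were among the shared risers, and Cxcl10, Cd74, interferon-stimulated GTPase genes and most DNA replication genes tested were among the shared fallers. A further 3078 genes lay on opposite sides of unstimulated cells in the experiments, and their responses also passed a test of difference between experiments. They are described separately at the end.

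The cells were CD8+ T cells from the spleens of wild-type C57BL/6J mice that were 6 to 8 weeks old, isolated by negative selection. By the study's methods the cells were activated for 48 hours with anti-CD3 (2 µg/mL, on the plate) and anti-CD28 (1 µg/mL, in solution) and then rested overnight. They then received murine IL-21 (mIL-21, WT in the sample labels) or the computationally designed IL-21 mimic 21h10 for 24 hours, or no cytokine. The methods do not describe the unstimulated cells separately. The labels give the 24 hours for treated libraries only. How long the unstimulated cells were cultured is not stated there, and a part of culture time in the changes was not tested. Experiment 1 held unstimulated cells and both cytokines at 100 pM and 1 nM, and experiment 2, with unstimulated cells of its own, tested both cytokines at 10 nM and 100 nM, with duplicate libraries per group. Because the doses of the experiments do not overlap, dose range and experiment cannot be told apart. The study's methods describe RNA-seq replicates as independent, each from its own tissue preparation or donor, and the labels do not tie single libraries to preparations. All comparisons with unstimulated cells within an experiment share the same 2 unstimulated libraries.

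IL-21 binds a receptor made of IL-21R and the common gamma chain, which bring together the kinases JAK1 and JAK3 and lead to the phosphorylation of STAT proteins, foremost STAT3. STAT dimers bind palindromic DNA elements and drive early target genes, among them the suppressors of cytokine signaling that then restrain the receptor. In activated CD8+ T cells the cytokine is known for sustaining cytotoxic effector genes and for its cooperation with other common gamma chain cytokines.

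The libraries of experiment 1 held from 36824740 to 94070730 reads on genes, and those of experiment 2 from 27072917 to 43300094. Levels are given as CPM (reads of a gene in every 1e+06 reads on genes, after TMM scaling), and differences as log2 fold changes with a standard error (SE). The SE was not estimated separately. It is the absolute log2 fold change divided by the square root of the F statistic of its test. Unless stated otherwise, the fold change and the adjusted p come from the quasi-likelihood test of edgeR, adjusted over all genes by Benjamini-Hochberg, in a fit of the 16 treated against the 4 unstimulated libraries with experiment as a block. That fit compares mean levels, so that the change of a gene with a steep gradient of dose can exceed the mean of its log2 changes. It called 3362 genes higher (23.1%) and 4668 lower (32.1%), together 55.3% of those tested, and the median of all genes was -0.06. The summed level of the CD8 T cell markers Cd8a, Cd8b1, Cd3d, Cd3e, Cd3g and Cd2 was between 1819.7 and 2934 CPM in every library, whereas 6 B cell markers together came to at most 17.3 CPM. The 4 CD4 and regulatory T cell markers summed to between 27.3 and 31.0 CPM without and between 36.4 and 69.8 CPM with cytokine, with Cd4 itself at most 4.06 CPM. In bulk RNA, fewer cells of a type and less RNA per cell cannot be told apart.

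The experiments share no library, which allowed the response of one to be looked up in the other. Of 5896 genes called higher with cytokine in experiment 1 (40.6% of those tested), 3164 (53.7%) were also higher in experiment 2, where 44.9% of all genes were higher, and 2017 (34.2%) were called higher there as well. Of 5984 genes called lower in experiment 1 (41.2%), 4058 (67.8%) were lower and 2592 (43.3%) were called lower in experiment 2. At a log2 change of at least 1 in experiment 1, 1567 of 2630 genes called higher (59.6%) were higher in experiment 2. Of 1890 called lower at that limit, 1400 (74.1%) were lower. The reverse look-up started from 3383 genes called higher in experiment 2 (23.3%), of which 2324 (68.7%) were higher in experiment 1 against 50.9% of all genes. With a limit of at least 1 on the log2 scale, 1004 of 1128 such genes (89%) were higher in experiment 1. Of 4683 genes called lower in experiment 2 (32.2%), 2895 (61.8%) were lower in experiment 1, and with the same limit 639 of 1217 (52.5%). Against these stand 1516 genes called higher in experiment 1 (25.7%) that were called lower in experiment 2.

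Across all 14530 genes the mean responses of the experiments correlated with Pearson's r of 0.327 and Spearman's rho of 0.279, and 8734 genes (60.1%) had the same sign. These correlations run across genes, which are not independent replicates. Genes were found most often at 4 of 8 groups higher (3398 genes) and at the extremes, with 3159 genes lower in all 8 groups and 2513 higher in all 8. Of the shared genes, 1446 risers and 2042 fallers had every treated library beyond both unstimulated libraries of its experiment, in both experiments. Over all genes tested the counts were 1446 (9.95%) and 2043 (14.1%). Such a gene lies on the same side in all 8 groups, so these are nearly the same genes and no background. In the single comparisons of experiment 1, the share of genes called higher was 37.3% at 100 pM mIL-21, 39.3% at 100 pM 21h10, 39% at 1 nM mIL-21 and 37.7% at 1 nM 21h10, and the share called lower 37.9%, 39.5%, 38.7% and 39.7%. In experiment 2 the shares called higher were 19.2% and 20.6% at 10 nM mIL-21 and 21h10 and 19.3% and 21.2% at 100 nM, and those called lower 24.7%, 27.2%, 24.8% and 27.7%. All 8 comparisons were past the threshold for 971 genes that rose (6.68%) and 1207 that fell (8.31%). A fold change of at least 1 on the log2 scale was reached by 1226 shared risers and 769 shared fallers.

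**Figure D1:**
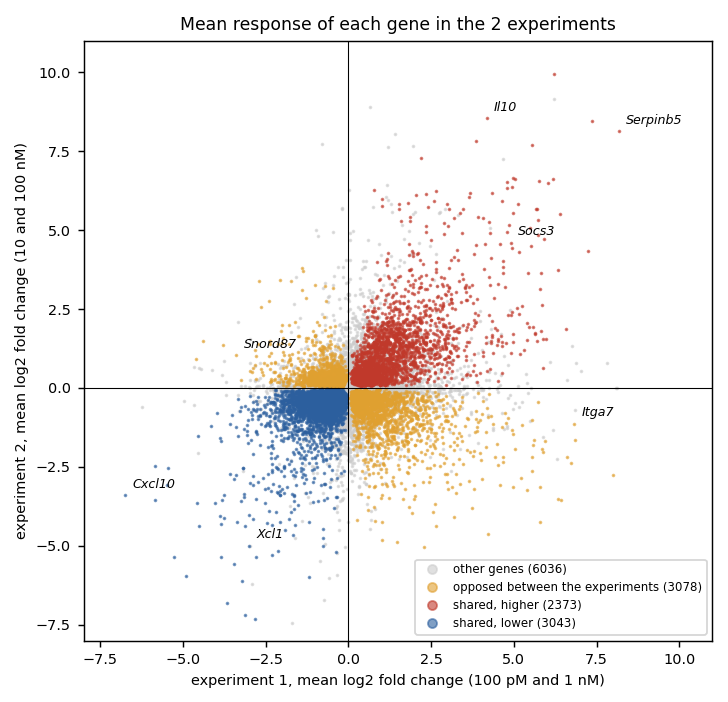
Each point is 1 of 14530 genes, with its mean log2 fold change over the 4 treated groups against unstimulated cells in experiment 1 (100 pM and 1 nM, horizontal axis) and in experiment 2 (10 nM and 100 nM, vertical axis). The 2373 shared risers fill the upper right, the 3043 shared fallers the lower left, and the 3078 opposed genes the other quadrants, with Serpinb5 and Il10 far to the upper right and Cxcl10 and Xcl1 far to the lower left.

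The balance of shared risers and fallers depended on the scaling. With TMM scaling 43.8% of the shared genes were risers, against 31.4% (1808 higher, 3947 lower) when libraries were scaled by the authors' mapped reads and 25.9% (1254 and 3595) with limma on log2(RPKM + 1). In the pooled test itself, 41.9% of calls were rises, against 32% by mapped reads and 30.5% with limma. Scaling by mapped reads moved the median of all genes in experiment 2 from -0.07 to -0.26, so that changes of a size near this shift depend on the scaling.

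Among the 15 named risers were the serpin genes Serpinb5 and Serpinb1a and the protease inhibitor gene Slpi. For the genes named as having risen or fallen, every treated library lay beyond both unstimulated libraries of its own experiment, which was required for naming them and is no result. Serpinb5 (chr1:106861175-106883348 in GRCm38.p6), which encodes the serpin maspin, was at 0.142 and 0.146 CPM without cytokine and 1.22 to 473 CPM (median 70.0) with it in experiment 1, and at 0.561 and 0.888 CPM against 175 to 225 CPM (median 206.8) in experiment 2. It rose by 8.89 ± 1.48 on the log2 scale (SE, adjusted p = 4.01e-05), and its lowest treated levels were the pair at 100 pM mIL-21. Serpinb1a (chr13:32842092-32853206), an inhibitor of neutrophil granule proteases, was at 0.311 and 0.492 CPM without cytokine and 4.95 to 113 CPM (median 39.8) with it in experiment 1, and at 1.08 and 1.15 CPM against 65.4 to 144 CPM (median 126) in experiment 2. Its rise was 6.77 ± 0.83 (SE, adjusted p = 1.06e-06), with a mean log2 change of 6.17 in experiment 1 and 6.62 in experiment 2. Slpi (chr2:164354070-164356507), a secreted inhibitor of leukocyte proteases, was at 0.0766 and 0.146 CPM without cytokine and 1.22 to 9.79 CPM (median 6.29) with it in experiment 1. For Slpi, experiment 2 had 0.0555 and 0.146 CPM against 1.77 to 5.21 CPM (median 3.74). Slpi rose by 5.51 ± 0.63 (SE, adjusted p = 4.3e-07). For these genes the treated libraries at 100 pM mIL-21 lay nearest to the unstimulated ones, and the levels of experiment 2 were within the range of experiment 1 or above it.

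Il10 (chr1:131019845-131024970), which encodes an anti-inflammatory cytokine, was at 0.471 and 0.494 CPM without cytokine, 0.958 and 0.700 CPM at 100 pM mIL-21, 7.91 and 6.35 CPM at 100 pM 21h10, 12.1 and 12.5 CPM at 1 nM mIL-21 and 80.3 and 78.3 CPM at 1 nM 21h10 in experiment 1. In experiment 2 it was at 0.195 and 0.0833 CPM without cytokine, 55.6 and 59.1 CPM at 10 nM mIL-21, 53.9 and 49.0 CPM at 10 nM 21h10, 44.9 and 42.8 CPM at 100 nM mIL-21 and 74.0 and 65.5 CPM at 100 nM 21h10. The levels at 100 pM mIL-21 were the lowest of the treated ones and lay close to the unstimulated pair, and those at 1 nM 21h10 were of the size seen at 10 nM and 100 nM. The rise of Il10 was 6.60 ± 1.23 (SE, adjusted p = 0.000135), and it was larger in experiment 2 by 4.38 on the log2 scale (adjusted p = 1.04e-09). The growth factor gene Tgfb3 (chr12:86056743-86079041), a member of the TGF-β family, was at 0.311 and 0.339 CPM without cytokine and 7.70 to 56.7 CPM (median 31.9) with it in experiment 1. For Tgfb3, experiment 2 had 0.888 and 1.15 CPM against 8.76 to 18.3 CPM (median 14.6). Tgfb3 rose by 4.99 ± 0.64 (SE, adjusted p = 1.94e-06). Its response was 2.57 lower on the log2 scale in experiment 2 than in experiment 1 (adjusted p = 7.68e-08), a difference in the opposite sense to that of Il10. On the opposite strand, Gm37804 and Gm48008 share 4.82% and 7.6% of the exonic bases of Tgfb3.

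Several named risers encode proteins of the cell surface. Itgam (chr7:128062640-128118491), the integrin subunit CD11b, was at 0.679 and 0.842 CPM without cytokine and 14.8 to 82.7 CPM (median 57.2) with it in experiment 1, and at 3.14 and 3.20 CPM against 41.9 to 106 CPM (median 99.7) in experiment 2, and rose by 5.34 ± 0.52 (SE, adjusted p = 6.01e-08). The gene Gm49368 shares 68.7% of the exonic bases of Itgam on the same strand, so that reads of the pair cannot be separated. Cxcr1 (chr1:74191785-74194708), a chemokine receptor best known from neutrophils, was at 0.0183 and 0.0657 CPM without cytokine and 0.207 to 12.6 CPM (median 1.69) with it in experiment 1. For Cxcr1, experiment 2 had 0.0278 and 0.0976 CPM against 2.31 to 4.88 CPM (median 4.15). Cxcr1 rose by 6.14 ± 1.12 (SE, adjusted p = 0.000113). Ffar2 (chr7:30818031-30823775), a receptor for short-chain fatty acids, was at 0.0657 and 0.165 CPM without cytokine and 0.985 to 17.4 CPM (median 6.63) with it in experiment 1. For Ffar2, experiment 2 had 0.0278 and 0.0976 CPM against 2.52 to 4.53 CPM (median 3.40). Ffar2 rose by 6.00 ± 0.77 (SE, adjusted p = 1.88e-06). Ggt1 (chr10:75561076-75586193), a surface enzyme that splits glutathione, was at 0.659 and 1.03 CPM without cytokine and 5.19 to 254 CPM (median 62.2) with it in experiment 1. For Ggt1, experiment 2 had 2.17 and 2.67 CPM against 109.6 to 317 CPM (median 276). Ggt1 rose by 6.69 ± 0.97 (SE, adjusted p = 8.17e-06). Fxyd7 (chr7:31042515-31051454), a regulator of the sodium pump, was at 0.0438 and 0.0732 CPM without cytokine and 3.79 to 13.6 CPM (median 11.03) with it in experiment 1. For Fxyd7, experiment 2 had 0.194 and 0.244 CPM against 2.02 to 6.88 CPM (median 5.54). Fxyd7 rose by 5.79 ± 0.60 (SE, adjusted p = 1.31e-07). Among treated cells, Itgam, Cxcr1, Ffar2 and Ggt1 were lowest at 100 pM mIL-21, and Fxyd7 at 100 nM 21h10. Unstimulated libraries held from 1 to 9 reads of Cxcr1 and Ffar2 and from 4 to 10 of Fxyd7, so that these fold changes rest on few unstimulated reads.

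Since several of these genes are best known from myeloid cells, the markers of such cells were read in the same libraries. The summed level of 11 measured myeloid and dendritic cell markers was between 7.65 and 8.90 CPM without cytokine and between 64.8 and 113 CPM with it in experiment 1, and between 17.3 and 18.2 CPM against 56.8 to 133 CPM in experiment 2, and Itgam itself is 1 of these markers. Itgax, Cd68 and Flt3 were the other markers that passed 1 CPM in any library, and their part in the rises above was not tested. Of the 11 markers, 7 stayed under 1 CPM in all 20 libraries, S100a8 and S100a9 were at 0 in every library, and Csf1r was at most 0.0692 CPM. Cd68, a lysosomal protein gene, was at 3.75 and 4.27 CPM without cytokine and 15.6 to 25.9 CPM (median 24.4) with it in experiment 1. For Cd68, experiment 2 had 4.59 and 5.33 CPM against 5.06 to 9.70 CPM (median 7.18).

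Enpp2 (chr15:54838901-54952789), which encodes autotaxin, the enzyme that makes lysophosphatidic acid, was at 0.110 and 0.131 CPM without cytokine and 0.441 to 113 CPM (median 5.73) with it in experiment 1. For Enpp2, experiment 2 had 0.222 and 0.268 CPM against 5.12 to 9.55 CPM (median 7.17). Enpp2 rose by 6.59 ± 1.57 (SE, adjusted p = 0.00141). Its highest levels, 95.7 and 113 CPM, were at 1 nM 21h10. Ifitm1 (chr7:140967429-140969827), an interferon-induced antiviral membrane protein, was at 3.25 and 3.33 CPM without cytokine and 14.0 to 393 CPM (median 138.8) with it in experiment 1. For Ifitm1, experiment 2 had 5.39 and 7.59 CPM against 243 to 763 CPM (median 667). Ifitm1 rose by 6.04 ± 0.84 (SE, adjusted p = 5.3e-06). The homeobox factor gene Hlx (chr1:184727143-184732493) was at 0.197 and 0.238 CPM without cytokine and 1.01 to 40.4 CPM (median 7.40) with it in experiment 1. For Hlx, experiment 2 had 0.0976 and 0.167 CPM against 11.4 to 15.1 CPM (median 13.2). Hlx rose by 6.20 ± 0.97 (SE, adjusted p = 2.09e-05). Gm26684 shares 5.97% of the exonic bases of Enpp2 on the opposite strand, and near-identical sequence in Gm7676 covers 36.2% of the Ifitm1 transcript.

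**Figure D2:**
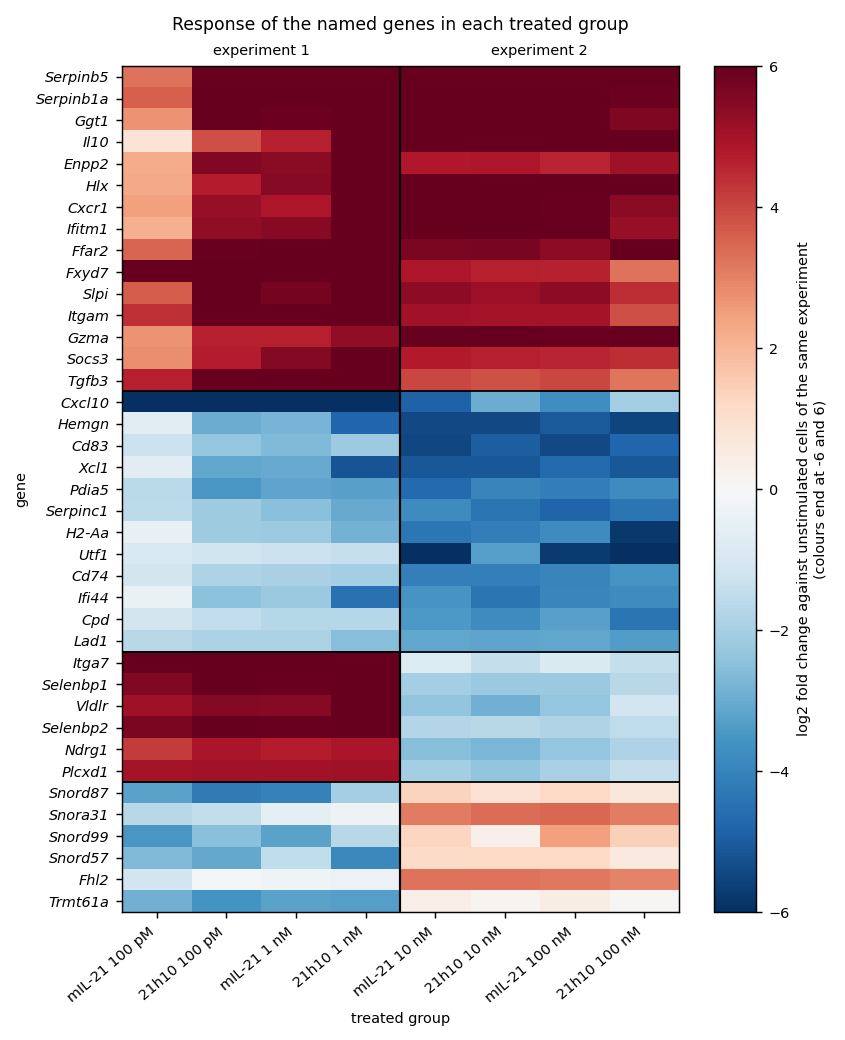
Rows are the 39 named genes (15 shared risers, 12 shared fallers and 2 sets of 6 opposed genes, separated by lines), columns the 8 treated groups, and colour the log2 fold change against the unstimulated cells of the same experiment, with the scale ending at -6 and 6. The risers are red and the fallers blue in all 8 columns, most of the risers palest at 100 pM mIL-21, while the opposed genes change colour between experiment 1 and experiment 2.

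Of the 32 gene lists examined, early STAT3 target genes held the highest share of shared risers. Of 18 early STAT3 target genes tested, 14 were shared risers and none a shared faller, where 16.3% and 20.9% of all genes tested were shared risers and shared fallers. These shares of all genes are also the background for the list counts given below. The median log2 fold change of the list was 1.15, against -0.06 for all genes. Of 12 STAT feedback inhibitors, 4 were shared risers (Socs3, Cish, Ptpn2 and Pias1), while Socs2 and Socs6 were opposed and higher in experiment 2 and Socs7 and Pias3 opposed and higher in experiment 1.

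Socs3 (chr11:117966079-117970336), which binds the gp130 receptor family and JAKs and blocks STAT3 signaling, was at 6.65 and 6.72 CPM without cytokine, 48.3 and 45.1 CPM at 100 pM mIL-21, 174 and 172 CPM at 100 pM 21h10, 299 and 316 CPM at 1 nM mIL-21 and 699 and 621 CPM at 1 nM 21h10 in experiment 1. In experiment 2 it was at 12.1 and 11.97 CPM without cytokine, 316 and 341 CPM at 10 nM mIL-21, 306 and 303 CPM at 10 nM 21h10, 291 and 284 CPM at 100 nM mIL-21 and 257 and 253 CPM at 100 nM 21h10. Every treated library was above both unstimulated ones, with the smallest levels at 100 pM mIL-21 and the largest at 1 nM 21h10. The rise was 5.01 ± 0.65 (SE, adjusted p = 2.29e-06). Cish (chr9:107296659-107302784), a STAT5-induced inhibitor of cytokine and T cell receptor signaling, was at 36.9 and 38.0 CPM without cytokine and 57.3 to 155 CPM (median 98.4) with it in experiment 1, and at 16.5 and 20.98 CPM against 38.4 to 68.8 CPM (median 39.9) in experiment 2, and rose by 1.38 ± 0.23 (SE, adjusted p = 5.17e-05). Ptpn2, a phosphatase of JAK1 and STAT proteins, was at 90.9 and 95.8 CPM without cytokine and 129 to 473 CPM (median 218) with it in experiment 1. For Ptpn2, experiment 2 had 88.0 and 112 CPM against 148 to 215 CPM (median 173). Ptpn2 rose by 1.11 ± 0.27 (SE, adjusted p = 0.0016).

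Bcl3 (chr7:19808462-19822824), an atypical IκB protein that acts in the nucleus, was at 13.7 and 15.1 CPM without cytokine and 69.5 to 199 CPM (median 126) with it in experiment 1, and at 22.8 and 26.5 CPM against 149 to 191 CPM (median 158) in experiment 2, and rose by 2.95 ± 0.24 (SE, adjusted p = 7.15e-09). Pim1, a serine and threonine kinase that supports survival, was at 42.2 and 43.2 CPM without cytokine and 93.9 to 407 CPM (median 236) with it in experiment 1. For Pim1, experiment 2 had 63.3 and 70.5 CPM against 384 to 446 CPM (median 417). Pim1 rose by 2.57 ± 0.30 (SE, adjusted p = 6.5e-07). Bcl6 (chr16:23965050-23988866), a transcriptional repressor of memory and follicular helper cells, was at 4.54 and 5.20 CPM without cytokine and 15.5 to 38.5 CPM (median 30.9) with it in experiment 1. For Bcl6, experiment 2 had 7.39 and 7.44 CPM against 28.1 to 38.7 CPM (median 33.8). Bcl6 rose by 2.36 ± 0.22 (SE, adjusted p = 3.02e-08). Osm, a cytokine of the IL-6 family, rose by 2.38 ± 0.48 (SE, adjusted p = 0.000314), and Stat3 itself by 0.88 ± 0.19 (SE, adjusted p = 0.000708). The hypoxia factor gene Hif1a rose by 0.94 ± 0.13 (SE, adjusted p = 5.99e-06) and the survival gene Mcl1 by 0.66 ± 0.11 (SE, adjusted p = 4.3e-05). Cebpd, a C/EBP factor gene whose level was low, was at 0.153 and 0.165 CPM without cytokine and 0.354 to 5.45 CPM (median 1.69) with it in experiment 1. For Cebpd, experiment 2 had 0.0732 and 0.250 CPM against 5.73 to 9.001 CPM (median 7.53), a pooled log2 fold change of 4.55 ± 0.63 (SE, adjusted p = 4.98e-06). Opposite-strand exons of Spidr share 15% of Cebpd, and those of Gm26885 share 14.5% of Pim1.

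To show what STAT elements look like at genes of the shared response, 300-base windows around the start sites of Socs3, Cish, Bcl6, Il18r1 and, as a shared faller, Igtp are printed from RefSeq (GRCm38.p6), each from 250 bases before to 50 bases after the start site, 5′ to 3′ on the strand of the gene. Capitals mark matches to TTCNNNGAA, the palindromic core bound by STAT dimers, which reads the same on both strands. The windows are Socs3 at chr11:117969317-117969616 (minus strand), Cish at chr9:107296409-107296708 (plus), Bcl6 at chr16:23981234-23981533 (minus), Il18r1 at chr1:40465756-40466055 (plus) and Igtp at chr11:58199306-58199605 (plus). Those of Socs3 and Bcl6 belong to start sites inside the gene spans given above.
Socs3: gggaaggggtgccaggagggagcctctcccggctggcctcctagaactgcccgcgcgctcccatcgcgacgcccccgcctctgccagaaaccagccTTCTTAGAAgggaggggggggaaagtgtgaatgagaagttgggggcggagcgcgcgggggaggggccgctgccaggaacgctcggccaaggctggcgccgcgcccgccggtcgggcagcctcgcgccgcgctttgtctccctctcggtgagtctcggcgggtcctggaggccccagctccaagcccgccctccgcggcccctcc
Cish: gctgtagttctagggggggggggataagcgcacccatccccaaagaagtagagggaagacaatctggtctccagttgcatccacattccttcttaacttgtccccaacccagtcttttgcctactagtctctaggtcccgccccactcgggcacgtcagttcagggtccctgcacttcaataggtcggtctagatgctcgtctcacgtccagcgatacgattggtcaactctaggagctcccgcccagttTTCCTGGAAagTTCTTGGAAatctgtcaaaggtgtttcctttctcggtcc
Bcl6: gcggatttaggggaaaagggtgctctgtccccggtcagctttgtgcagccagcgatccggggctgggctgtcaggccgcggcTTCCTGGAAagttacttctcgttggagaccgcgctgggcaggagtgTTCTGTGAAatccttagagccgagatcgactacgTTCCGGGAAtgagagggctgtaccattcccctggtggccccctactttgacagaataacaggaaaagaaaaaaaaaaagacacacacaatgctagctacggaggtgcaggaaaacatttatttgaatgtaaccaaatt
Il18r1: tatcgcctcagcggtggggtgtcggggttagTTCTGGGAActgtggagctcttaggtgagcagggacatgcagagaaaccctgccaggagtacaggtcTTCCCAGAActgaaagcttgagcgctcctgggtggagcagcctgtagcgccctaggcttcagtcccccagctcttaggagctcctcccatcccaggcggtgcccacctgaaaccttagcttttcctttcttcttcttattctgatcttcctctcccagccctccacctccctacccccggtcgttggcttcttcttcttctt
Igtp: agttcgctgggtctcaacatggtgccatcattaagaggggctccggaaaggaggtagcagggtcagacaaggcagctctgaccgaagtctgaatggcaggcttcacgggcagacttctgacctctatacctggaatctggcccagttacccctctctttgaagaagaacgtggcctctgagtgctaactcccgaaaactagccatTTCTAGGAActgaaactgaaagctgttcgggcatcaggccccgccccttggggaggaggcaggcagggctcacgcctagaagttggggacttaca

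The match begins 154 bases before the start site in Socs3 and 45 bases before it in Igtp. Cish has matches beginning at bases 1 and 12 of the transcript, Bcl6 at 168, 122 and 88 bases before this start site, and Il18r1 at 219 and 152 bases before it. Another Bcl6 window, at chr16:23988803-23989102 and not printed, held 1 match, beginning 118 bases before its start site. Of all 32851 windows, 8.3% held TTCNNNGAA. Counted by gene, any window held it for 8.34% of the genes tested that had a window (887 of 10637). The shares by gene were 8.8% for the shared risers (153 of 1738) and 8.24% for the shared fallers (189 of 2295). Of the 27 named risers and fallers, 20 had a window, and only that of Socs3 held the element. A match describes letters and is no evidence of binding, and the shares of shared risers and fallers were near that of all genes tested.

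Genes of the receptor itself and of related receptors were also among the shared risers. Il21r (chr7:125603252-125634397), the specific subunit of the IL-21 receptor, was at 122 and 127 CPM without cytokine and 137.4 to 343 CPM (median 225) with it in experiment 1, and at 119.6 and 128 CPM against 379 to 430.2 CPM (median 409) in experiment 2, and rose by 1.27 ± 0.20 (SE, adjusted p = 2.44e-05). Of 8 common gamma chain family receptor genes, 4 were shared risers (Il21r, Il2rg, Il4ra and Il7r), and Il2rb, whose levels overlapped in experiment 2, was the 1 shared faller at -0.22 ± 0.07 (SE, adjusted p = 0.0112). Il4ra rose by 1.04 ± 0.15 (SE, adjusted p = 5.64e-06) and Il7r, the receptor for the survival cytokine IL-7, by 0.71 ± 0.08 (SE, adjusted p = 1.64e-07). The common gamma chain gene Il2rg rose by 0.51 ± 0.09 (SE, adjusted p = 0.000119), and 30.5% of its exonic bases are shared with Gm20489. Of 11 genes of JAK kinases and STAT factors, 4 were shared risers, 1 was a shared faller and 3 were opposed and higher in experiment 1, with list medians of 0.60 in experiment 1 and -0.01 in experiment 2. Jak1 and Jak3 rose by 0.47 ± 0.07 (adjusted p = 2.4e-05) and 1.00 ± 0.15 (adjusted p = 8.3e-06), and Stat5b by 0.61 ± 0.13 (adjusted p = 0.00067).

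Of 14 receptor subunit genes for IL-6, IL-10, IL-12, IL-18 and IL-1, 7 were shared risers and none a shared faller. Il18r1, the ligand-binding chain of the IL-18 receptor, was at 54.1 and 58.2 CPM without cytokine and 139.7 to 186 CPM (median 163) with it in experiment 1, and at 101 and 117 CPM against 320.4 to 488 CPM (median 452) in experiment 2, and its groups did not overlap. It rose by 1.74 ± 0.12 (SE, adjusted p = 1.34e-09), and its partner chain Il18rap by 1.72 ± 0.17 (SE, adjusted p = 5.85e-08). Il12rb2, the inducible subunit of the IL-12 receptor, was at 175 and 176 CPM without cytokine and 388 to 857 CPM (median 519) with it in experiment 1. For Il12rb2, experiment 2 had 325 and 348 CPM against 622 to 781 CPM (median 705). Il12rb2 rose by 1.36 ± 0.19 (SE, adjusted p = 4.65e-06), although 40% of its exonic bases are shared with Serbp1 on the opposite strand. Il6st, the shared subunit gp130, rose by 0.84 ± 0.12 (SE, adjusted p = 7.43e-06), the decoy receptor gene Il1r2 by 2.55 ± 0.35 (SE, adjusted p = 3.73e-06), Il17ra by 1.73 ± 0.25 (SE, adjusted p = 1e-05) and Il27ra by 0.89 ± 0.11 (SE, adjusted p = 1.67e-06).

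**Figure D3:**
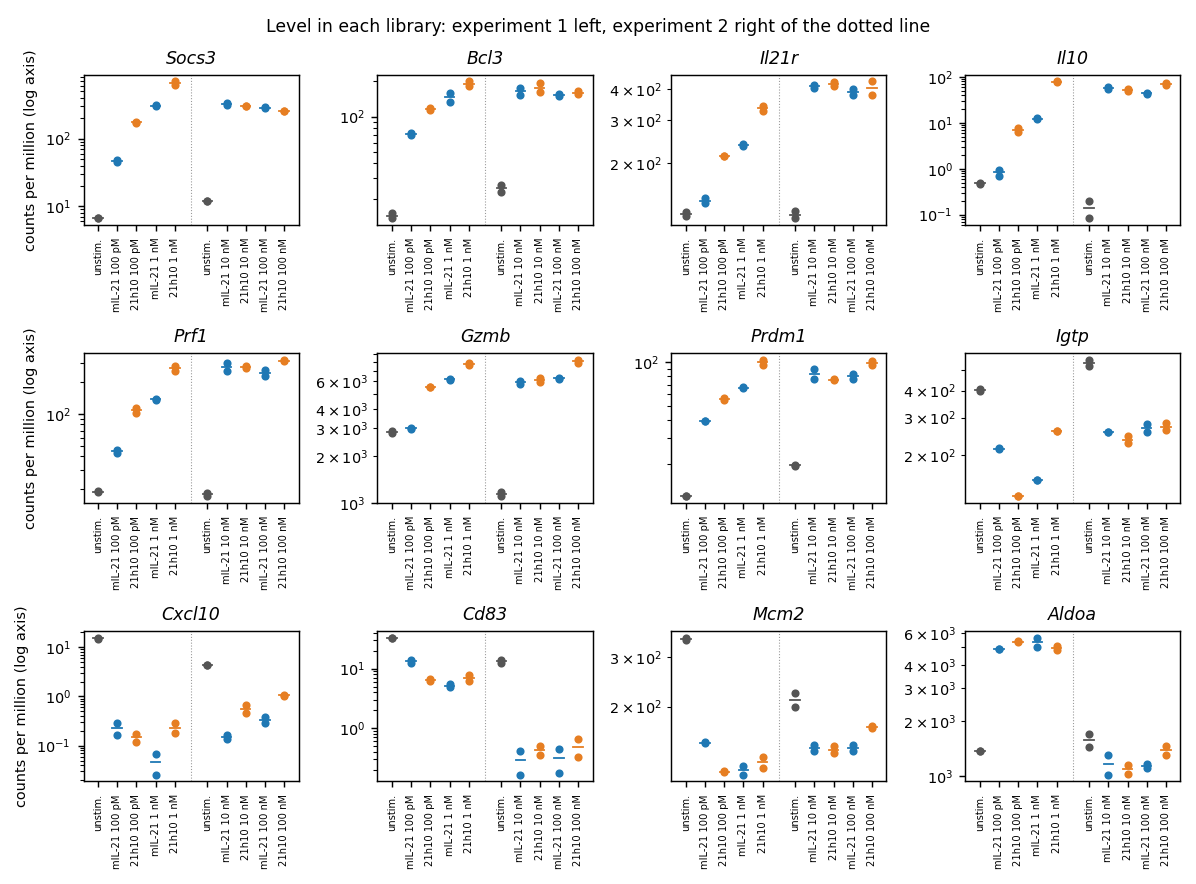
Level of 12 genes (CPM, log axis) in each of the 20 libraries, with points for libraries and a short bar for the mean of each group, experiment 1 on the left and experiment 2 on the right of the dotted line, and grey for unstimulated cells, blue for mIL-21 and orange for 21h10. Socs3, Bcl3, Prf1 and Prdm1 climb from 100 pM mIL-21 to 1 nM 21h10 and span a narrower range at 10 nM and 100 nM, Cxcl10, Cd83 and Mcm2 lie below their unstimulated cells in every group, and Aldoa is higher with cytokine in experiment 1 only.

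Of 22 genes of cytotoxic granules and killing tested, 11 were shared risers and Gzmf was a shared faller, and the list median was 0.56. Gzma (chr13:113093824-113100981), the tryptase of the granules, was at 40.5 and 41.4 CPM without cytokine and 263 to 1645 CPM (median 1040.3) with it in experiment 1, and at 47.2 and 51.1 CPM against 2709 to 4785 CPM (median 3334) in experiment 2, and rose by 5.26 ± 0.53 (SE, adjusted p = 8.37e-08). Prf1 (chr10:61297751-61304684), which encodes perforin, was at 18.5 and 18.8 CPM without cytokine and 43.5 to 286 CPM (median 125) with it in experiment 1, and at 16.9 and 18.3 CPM against 228 to 325 CPM (median 277) in experiment 2, and rose by 3.39 ± 0.43 (SE, adjusted p = 1.94e-06). Gzmb (chr14:56258836-56262334), the granzyme that cleaves caspases, was already at 2867 and 2813 CPM without cytokine in experiment 1, where 100 pM mIL-21 gave 2983 and 2999 CPM and 1 nM 21h10 7603 and 7911 CPM. In experiment 2 it was at 1097 and 1173 CPM without cytokine and at 5785 to 8266 CPM, and the pooled rise was 1.64 ± 0.29 (SE, adjusted p = 7.32e-05). The 100 pM mIL-21 pair of Gzmb lay closest to the unstimulated pair.

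Further shared risers of the list were Gzmk at 3.17 ± 0.18 (SE, adjusted p = 4.92e-11), the cathepsin gene Ctsw at 2.01 ± 0.21 (SE, adjusted p = 1.09e-07), the granule membrane gene Nkg7 at 1.27 ± 0.15 (SE, adjusted p = 6.2e-07) and Tnfsf10, which encodes the death ligand TRAIL, at 0.89 ± 0.16 (SE, adjusted p = 7.12e-05). Rab27a and Stx11, which act in docking and fusion of granules, rose by 1.21 ± 0.17 (adjusted p = 7.69e-06) and 1.00 ± 0.21 (adjusted p = 0.000431). Gzmk was at 1.13 and 1.26 CPM without cytokine and 13.4 to 18.7 CPM (median 16.5) with it in experiment 1. For Gzmk, experiment 2 had 2.998 and 3.05 CPM against 17.3 to 21.6 CPM (median 19.0). Nkg7 was at 136.3 and 136.7 CPM without cytokine and 243 to 491 CPM (median 350.1) with it in experiment 1. For Nkg7, experiment 2 had 112 and 157 CPM against 268 to 354 CPM (median 305). Both had higher treated than unstimulated levels throughout. Gzmf fell by 1.78 ± 0.19 (SE, adjusted p = 2.3e-07) from levels of at most 4.39 CPM.

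Of 18 effector transcription factor genes, 9 were shared risers and none a shared faller. Prdm1 (chr10:44437174-44528558), which encodes BLIMP-1, a repressor that drives terminal effector differentiation, was at 12.04 and 12.2 CPM without cytokine and 39.2 to 104 CPM (median 61.5) with it in experiment 1, and at 19.6 and 19.8 CPM against 75.5 to 102 CPM (median 79.7) in experiment 2, and rose by 2.26 ± 0.22 (SE, adjusted p = 5.62e-08). Id2, an inhibitor of E proteins, was at 97.4 and 101 CPM without cytokine and 163 to 417 CPM (median 261) with it in experiment 1. For Id2, experiment 2 had 108 and 117 CPM against 561 to 673 CPM (median 637). Id2 rose by 1.92 ± 0.24 (SE, adjusted p = 1.07e-06). Hopx rose by 2.19 ± 0.25 (SE, adjusted p = 3.63e-07), and the aryl hydrocarbon receptor gene Ahr by 2.29 ± 0.37 (SE, adjusted p = 3.26e-05). Bhlhe40, Nfil3 and Runx3 rose by 1.37 ± 0.21 (adjusted p = 1.75e-05), 1.53 ± 0.40 (adjusted p = 0.00291) and 0.96 ± 0.11 (adjusted p = 7.05e-07), with larger mean changes in experiment 1 (2.01, 2.32 and 1.39) than in experiment 2 (0.83, 0.73 and 0.59). Exons of Hopxos share 27.2% of Hopx on the opposite strand. T-bet, the effector factor encoded by Tbx21, was at 79.8 and 81.5 CPM without cytokine and 63.9 to 94.7 CPM (median 73.5) with it in experiment 1, and at 53.6 and 62.0 CPM against 68.5 to 79.5 CPM (median 75.7) in experiment 2, a pooled log2 fold change of 0.12 ± 0.10 (SE, adjusted p = 0.299).

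Of 18 genes of resting and memory cells tested, 8 were shared risers and 1 was a shared faller, with a list median of 0.59. Klf2, a factor of quiescence and lymphocyte recirculation, rose by 1.33 ± 0.37 (SE, adjusted p = 0.00425) and its target S1pr1, the receptor for egress from lymphoid tissue, by 1.09 ± 0.17 (SE, adjusted p = 1.51e-05). Foxo1 rose by 0.86 ± 0.09 (SE, adjusted p = 1.4e-07), Satb1 by 1.00 ± 0.16 (SE, adjusted p = 2.62e-05) and Bcl2 by 1.02 ± 0.23 (SE, adjusted p = 0.000917). Dapl1 was at 37.4 and 40.9 CPM without cytokine and 8.47 to 30.5 CPM (median 15.2) with it in experiment 1. For Dapl1, experiment 2 had 101 and 102 CPM against 14.6 to 29.3 CPM (median 25.5). Dapl1 fell by 1.67 ± 0.25 (SE, adjusted p = 1.3e-05). Tcf7, which encodes TCF-1, was at 298 and 300.1 CPM without cytokine and 282 to 511 CPM (median 426) with it in experiment 1, and at 697 and 703 CPM against 891 to 1138 CPM (median 1051) in experiment 2, a pooled log2 fold change of 0.50 ± 0.12 (SE, adjusted p = 0.00123).

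Trafficking and surface receptor genes showed rises and falls. Of 16 chemokine receptor genes, 6 were shared risers and 3 shared fallers, where 16.3% of all genes were shared risers and 20.9% shared fallers. Ccr2 (chr9:124101918-124109140) and Cxcr6 (chr9:123806477-123811754), receptors that guide effector T cells to inflamed tissue, rose by 3.16 ± 0.17 (adjusted p = 3.69e-11) and 2.46 ± 0.11 (adjusted p = 3.77e-12). Ccr2 was at 16.4 and 19.4 CPM without cytokine and 94.5 to 164 CPM (median 126) with it in experiment 1, and at 58.0 and 69.9 CPM against 648 to 829 CPM (median 733) in experiment 2. Ccr4, a receptor found on type 2 and regulatory T cells, was at 70.4 and 72.1 CPM without cytokine and 14.0 to 36.3 CPM (median 17.8) with it in experiment 1. For Ccr4, experiment 2 had 17.6 and 18.0 CPM against 4.54 to 12.2 CPM (median 6.72). Ccr4 fell by 1.50 ± 0.23 (SE, adjusted p = 1.72e-05). Ccr8, which was low throughout, had a pooled log2 fold change of -2.52 ± 0.35 (SE, adjusted p = 5.05e-06).

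Of 18 inhibitory receptor and exhaustion genes, 7 were shared risers and 4 were opposed and higher in experiment 1. Lag3, a ligand of MHC class II, was at 41.0 and 41.5 CPM without cytokine and 185 to 625 CPM (median 422) with it in experiment 1, and at 52.1 and 70.2 CPM against 185 to 256 CPM (median 208.3) in experiment 2, and rose by 2.44 ± 0.33 (SE, adjusted p = 3.45e-06). Havcr2, which encodes TIM-3, rose by 2.02 ± 0.26 (SE, adjusted p = 2.21e-06), and Entpd1, the ectonucleotidase CD39, by 2.58 ± 0.49 (SE, adjusted p = 0.00018). The orphan nuclear receptor genes Nr4a1 and Nr4a3, induced by T cell receptor signals, were the 2 shared fallers of the list, at -0.69 ± 0.16 (adjusted p = 0.00101) and -2.40 ± 0.36 (adjusted p = 1.35e-05). Pdcd1, which encodes PD-1, was at 27.4 and 28.3 CPM without cytokine and 13.3 to 32.1 CPM (median 29.8) with it in experiment 1, and at 16.2 and 21.03 CPM against 18.3 to 33.9 CPM (median 26.0) in experiment 2, a pooled log2 fold change of 0.16 ± 0.20 (SE, adjusted p = 0.499).

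Of 21 genes of the T cell receptor complex and proximal signaling, 10 were shared risers and none a shared faller, with small changes. Cd3e rose by 0.83 ± 0.11 (SE, adjusted p = 1.93e-06), the kinase gene Lck by 0.37 ± 0.07 (SE, adjusted p = 8.36e-05), Prkcq by 0.78 ± 0.05 (SE, adjusted p = 2.32e-10) and Ptprc, which encodes CD45, by 1.01 ± 0.09 (SE, adjusted p = 1.34e-08). Of 13 integrin genes, 6 were shared risers, among them Itgam and its partner chain Itgb2, which rose by 0.88 ± 0.08 (SE, adjusted p = 3.02e-08). Of 14 NK-type receptor genes, 1 was a shared faller and 5 were shared risers, among them Cd7, an immunoglobulin-family receptor of T and NK cells. It was at 1.41 and 1.61 CPM without cytokine and 24.8 to 51.4 CPM (median 42.0) with it in experiment 1. For Cd7, experiment 2 had 6.83 and 8.002 CPM against 80.7 to 145 CPM (median 129.97). Cd7 rose by 4.35 ± 0.25 (SE, adjusted p = 4.92e-11). The summed level of 6 NK cell markers ran from 53.4 to 54.0 CPM without and from 33.0 to 79.0 CPM with cytokine in experiment 1, and from 64.2 to 73.9 and from 55.2 to 255 CPM in experiment 2, and its part in the NK-type receptor changes was not tested.

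Of the 12 named fallers, Cxcl10, Hemgn, Cd83 and Xcl1 had the largest falls. Cxcl10 (chr5:92346638-92348889), a ligand of CXCR3 induced by interferon, was at 14.4 and 15.4 CPM without cytokine, 0.167 and 0.285 CPM at 100 pM mIL-21, 0.174 and 0.120 CPM at 100 pM 21h10, 0.0258 and 0.0683 CPM at 1 nM mIL-21 and 0.285 and 0.182 CPM at 1 nM 21h10 in experiment 1. In experiment 2 it was at 4.42 and 4.41 CPM without cytokine, 0.164 and 0.138 CPM at 10 nM mIL-21, 0.657 and 0.469 CPM at 10 nM 21h10, 0.376 and 0.284 CPM at 100 nM mIL-21 and 1.01 and 1.08 CPM at 100 nM 21h10. All treated libraries were below their unstimulated pair, and the fall was 5.22 ± 0.50 on the log2 scale (SE, adjusted p = 4.43e-08), the largest among the named fallers. Art3 shares 5.91% of the exonic bases of Cxcl10 on the opposite strand. Xcl1 (chr1:164931644-164935522), a chemokine that attracts cross-presenting dendritic cells, was at 18.3 and 18.8 CPM without cytokine and 0.428 to 11.9 CPM (median 2.15) with it in experiment 1, and at 11.8 and 12.1 CPM against 0.173 to 0.505 CPM (median 0.416) in experiment 2. It fell by 3.82 ± 0.60 (SE, adjusted p = 2.25e-05), and 18.7% of its exonic bases lie opposite Gm20743. Of 9 chemokine genes tested, 4 were shared fallers and none a shared riser, and the list median was -0.74 in experiment 1 and 0.76 in experiment 2.

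Cd74, the invariant chain of MHC class II, was at 45.4 and 45.9 CPM without cytokine and 10.9 to 21.9 CPM (median 12.3) with it in experiment 1, and at 13.7 and 17.8 CPM against 0.781 to 1.51 CPM (median 0.949) in experiment 2, and fell by 2.96 ± 0.28 (SE, adjusted p = 4.36e-08). H2-Aa (chr17:34282744-34287823), a class II alpha chain, was at 1.79 and 2.10 CPM without cytokine and 0.257 to 1.52 CPM (median 0.452) with it in experiment 1. For H2-Aa, experiment 2 had 1.999 and 2.20 CPM against 0 to 0.289 CPM (median 0.0482). H2-Aa fell by 3.07 ± 0.56 (SE, adjusted p = 0.000119). Cd83 (chr13:43785112-43803133), a surface molecule of activated lymphocytes and dendritic cells that stabilizes class II, was at 32.7 and 33.1 CPM without cytokine and 4.91 to 13.9 CPM (median 6.47) with it in experiment 1, and at 12.5 and 14.0 CPM against 0.164 to 0.649 CPM (median 0.379) in experiment 2, and fell by 3.86 ± 0.40 (SE, adjusted p = 1.19e-07). B cells also express these genes, and their markers were read in the same libraries. Ms4a1 was at most 0.999 CPM in any library. The summed level of 6 B cell markers was from 11.4 to 11.5 CPM without and from 7.73 to 17.3 CPM with cytokine in experiment 1 and from 11.6 to 14.0 and from 5.81 to 7.75 CPM in experiment 2. The part of B cells in the falls of the class II genes was not tested.

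Hemgn (chr4:46393989-46404183), a nuclear protein of blood progenitors and erythroid cells, was at 22.99 and 23.2 CPM without cytokine and 0.588 to 14.9 CPM (median 3.04) with it in experiment 1. For Hemgn, experiment 2 had 41.4 and 47.3 CPM against 0.757 to 1.42 CPM (median 1.08). Hemgn fell by 4.16 ± 0.58 (SE, adjusted p = 5.58e-06). The 9 erythroid and platelet markers summed to 3.58 to 3.64 CPM without and 1.14 to 2.57 CPM with cytokine in experiment 1, and to 2.61 to 2.88 and 0.397 to 1.10 CPM in experiment 2, with 7 of them under 1 CPM in all libraries, and their part in the fall of Hemgn was not tested. Cpd (chr11:76777208-76847008), which encodes carboxypeptidase D, was at 73.5 and 73.7 CPM without cytokine and 20.8 to 35.2 CPM (median 25.1) with it in experiment 1. For Cpd, experiment 2 had 35.6 and 41.2 CPM against 1.37 to 4.51 CPM (median 3.25). Cpd fell by 2.77 ± 0.27 (SE, adjusted p = 7.33e-08). Pdia5, a disulfide isomerase of the endoplasmic reticulum, and Lad1, which encodes ladinin, fell by 3.46 ± 0.32 (adjusted p = 3.3e-08) and 2.63 ± 0.17 (adjusted p = 3.6e-10). Serpinc1, the antithrombin gene, fell by 3.31 ± 0.32 (SE, adjusted p = 4.88e-08), although 34.4% of its exonic bases lie opposite Zbtb37. Utf1, a chromatin factor of embryonic stem cells, was at 4.63 and 4.94 CPM without cytokine and 1.81 to 2.90 CPM (median 2.06) with it in experiment 1. For Utf1, experiment 2 had 1.44 and 2.15 CPM against 0 to 0.250 CPM (median 0.0229), a fall of 3.06 ± 0.53 (SE, adjusted p = 7.11e-05).

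Of 28 interferon-stimulated genes tested, 13 were shared fallers and only Zbp1, whose libraries overlapped, a shared riser, with a list median of -0.80. Mx2, Ifi44 and Usp18 fell by 2.53 ± 0.21 (adjusted p = 6.57e-09), 2.95 ± 0.50 (adjusted p = 4.62e-05) and 1.77 ± 0.23 (adjusted p = 1.93e-06). Bst2, which encodes tetherin, a protein that holds back budding virus, was at 149.5 and 153 CPM without cytokine and 56.5 to 87.0 CPM (median 65.4) with it in experiment 1. For Bst2, experiment 2 had 53.0 and 74.0 CPM against 14.3 to 21.8 CPM (median 18.0). Bst2 fell by 1.51 ± 0.12 (SE, adjusted p = 7.78e-09).

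Of 23 interferon gamma response genes, 10 were shared fallers and 2 shared risers (Cd274 and Gbp8). Igtp (chr11:58199556-58207592), an immunity-related GTPase, was at 399.6 and 406 CPM without cytokine and 129 to 261 CPM (median 185) with it in experiment 1, and at 519 and 557 CPM against 227 to 284 CPM (median 257) in experiment 2. Its fall was 1.07 ± 0.14 (SE, adjusted p = 1.89e-06), and the groups did not overlap. Irgm1 and Irgm2, of the same GTPase family, fell by 1.62 ± 0.14 (adjusted p = 1.02e-08) and 1.01 ± 0.12 (adjusted p = 7.05e-07), and Iigp1 by 2.09 ± 0.37 (adjusted p = 8.56e-05). Tgtp1 and Tgtp2, which are near-identical copies whose reads cannot be told apart, fell by 1.66 and 1.65. Of 21 genes of MHC class I and antigen processing, 5 were shared fallers, where 20.9% of all genes were, 1 was a shared riser, and 5 and 2 were opposed and higher in experiment 1 and in experiment 2. Among the shared fallers were the immunoproteasome gene Psmb8 at -0.36 ± 0.07 (SE, adjusted p = 0.00034) and the proteasome activator gene Psme2 at -0.76 ± 0.11 (SE, adjusted p = 6.48e-06), of which the copy Psme2b covers 82.5% of the transcript. Ifng itself was at 5.49 and 5.67 CPM without cytokine and 2.05 to 10.4 CPM (median 5.05) with it in experiment 1, and at 4.25 and 4.83 CPM against 45.6 to 56.4 CPM (median 51.4) in experiment 2, a pooled log2 fold change of 1.22 ± 0.52 (SE, adjusted p = 0.0516).

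Of the 32 gene lists, DNA replication genes held the highest share of shared fallers. Of 33 tested, 29 were shared fallers and none a shared riser, all 33 were called lower in the pooled test, and the median was -0.97 against -0.06 for all genes. The median was -1.19 in experiment 1 and -0.77 in experiment 2. Mcm2 (chr6:88883474-88898780), a subunit of the replicative helicase, was at 345 and 350.0 CPM without cytokine and 115 to 150.2 CPM (median 122) with it in experiment 1, and at 199 and 223 CPM against 136.6 to 170.5 CPM (median 145) in experiment 2, and fell by 1.02 ± 0.12 (SE, adjusted p = 7.67e-07). Pcna, the sliding clamp of DNA polymerases, was at 820.4 and 837 CPM without cytokine and 269 to 349 CPM (median 295) with it in experiment 1. For Pcna, experiment 2 had 600.5 and 615 CPM against 373 to 472 CPM (median 418). Pcna fell by 1.05 ± 0.12 (SE, adjusted p = 3.11e-07). Rfc4, a subunit of the clamp loader, fell by 1.35 ± 0.06 (SE, adjusted p = 3.77e-12).

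Of 29 mitosis genes, 14 were shared fallers and the phosphatase gene Cdc25b was the 1 shared riser, at 0.73 ± 0.16 (SE, adjusted p = 0.00055), with a list median of -0.36. Ccnb1, the mitotic cyclin B1, fell by 0.83 ± 0.11 (SE, adjusted p = 4.3e-06), and Cdk1, its kinase, by 0.42 ± 0.07 (SE, adjusted p = 1.82e-05). Of 16 genes of G1 control, 6 were shared risers and 3 shared fallers, where 16.3% of all genes were shared risers and 20.9% shared fallers. Ccnd2 and Cdk4, which drive entry into the cycle, fell by 0.78 ± 0.05 (adjusted p = 1.16e-09) and 0.72 ± 0.05 (adjusted p = 1.5e-09). The CDK inhibitor gene Cdkn2d rose by 1.83 ± 0.26 (SE, adjusted p = 6.23e-06) and Ccnd3 by 0.80 ± 0.16 (SE, adjusted p = 0.000365). Treated and unstimulated libraries of these 4 G1 genes did not overlap in either experiment.

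Of 30 ribosome biogenesis genes, 15 were shared fallers, with a list median of -1.93 in experiment 1 and -0.08 in experiment 2. Utp20, a part of the small subunit processome, was at 184 and 188 CPM without cytokine and 17.8 to 28.5 CPM (median 20.3) with it in experiment 1, and at 82.2 and 85.4 CPM against 50.2 to 63.0 CPM (median 56.1) in experiment 2, and fell by 2.16 ± 0.27 (SE, adjusted p = 1.78e-06). Fbl, the rRNA methyltransferase fibrillarin, fell by 1.19 ± 0.09 (SE, adjusted p = 3e-09), and Wdr12, a factor of the large subunit, by 1.45 ± 0.09 (SE, adjusted p = 1.93e-10), with -1.57 in experiment 1 and -1.34 in experiment 2. Of 33 oxidative phosphorylation genes, 23 were shared fallers with medians near -0.39 in both experiments. Ndufa4 fell by 1.18 ± 0.06 (SE, adjusted p = 3.63e-11) and Atp5b, a subunit of the ATP synthase, by 0.71 ± 0.06 (SE, adjusted p = 6.57e-09).

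Of 23 cholesterol synthesis genes, 7 were shared risers and none a shared faller, and the count ran from 5 to 10 under other settings. Hmgcs1, an enzyme early in that pathway, was at 161 and 167 CPM without cytokine and 240.4 to 447 CPM (median 386) with it in experiment 1. For Hmgcs1, experiment 2 had 183 and 206.3 CPM against 274 to 368 CPM (median 307). Hmgcs1 rose by 0.92 ± 0.15 (SE, adjusted p = 3.28e-05). Among 15 BCL2 family genes, Bcl2 and Mcl1, which protect from apoptosis, and Bcl2l11, which encodes the killer protein BIM at 1.26 ± 0.17 (SE, adjusted p = 2.71e-06), were shared risers. Bax and Bid, both promoters of apoptosis, fell by 0.71 ± 0.10 (adjusted p = 3.36e-06) and 0.97 ± 0.11 (adjusted p = 6.72e-07), as did the protective gene Bcl2l1 by 0.58 ± 0.06 (adjusted p = 3.57e-07).

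**Figure D4:**
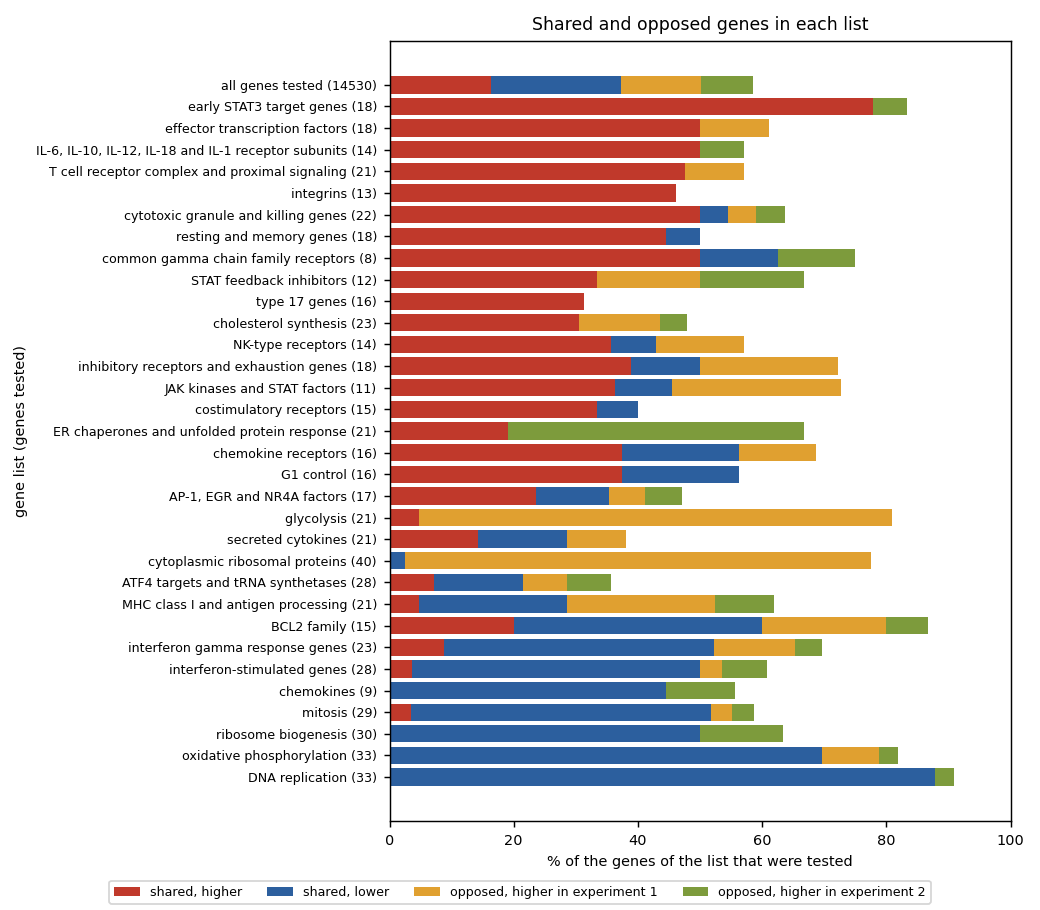
Bars give, for all 14530 genes tested and for 32 gene lists, the share of the tested genes (percent, horizontal axis) that were shared and higher (red), shared and lower (blue), opposed and higher in experiment 1 (orange) or opposed and higher in experiment 2 (green). Early STAT3 target genes are mostly red, DNA replication genes mostly blue, and glycolysis and cytoplasmic ribosomal protein genes mostly orange.

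Among the other lists, there were 3 shared risers (Il10, Il24 and Osm) and 3 shared fallers (Lta, Tnfsf11 and Csf2) among 21 secreted cytokines, 5 and 1 among 15 costimulatory receptors, 5 and 0 among 16 type 17 genes, 4 and 2 among 17 AP-1, EGR and NR4A factors and 2 and 4 among 28 ATF4 targets and tRNA synthetases. Over all genes tested, 16.3% were shared risers and 20.9% shared fallers, and several of these counts lie near or below those shares. Lta, which encodes lymphotoxin alpha, was at 25.8 and 27.3 CPM without cytokine and 7.54 to 21.99 CPM (median 9.18) with it in experiment 1. For Lta, experiment 2 had 17.03 and 17.2 CPM against 1.53 to 3.59 CPM (median 2.29). Lta fell by 2.12 ± 0.29 (SE, adjusted p = 4.82e-06). Icos, a costimulatory receptor, rose by 1.31 ± 0.19 (SE, adjusted p = 6.65e-06).

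Differences between the cytokines and between doses compare treated groups with each other. Those between cytokines come from the fit of all 10 groups. Those between doses, averaged over both cytokines, come from the fit of the 5 groups of each experiment. In both kinds of fit the unstimulated libraries add to the estimate of spread. The treated libraries are those that chose the shared genes, so the shares given here are descriptions. Within the shared response, 21h10 was, in the average over doses, further from unstimulated cells than mIL-21 more often than closer. This average need not hold at each dose. At 100 nM, the log2 fold change of Ggt1 was 5.59 with 21h10 and 6.88 with mIL-21, and that of Il10 was 8.90 and 8.23. Averaged over the 4 doses, 690 of 2373 shared risers were higher with 21h10 (29.1%) and 215 lower (9.06%), where 15.2% of all genes were called higher and 15.9% lower. Of 3043 shared fallers, 578 were lower with 21h10 (19%) and 167 higher (5.49%). The split depended on scaling, since without TMM factors 25% of risers were higher and 12.2% lower, and 29.3% of fallers were lower and 3.27% higher, against 11.2% and 23% of all genes. Over all genes 48.8% of the calls were rises, against 32.8% without TMM factors, 23.1% by mapped reads and 22.4% with limma.

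From 100 pM to 1 nM, calls in the shared direction outnumbered those against it. Of the risers, 980 (41.3%) were higher and 211 (8.89%) lower at 1 nM, and of the fallers, 936 (30.8%) were lower and 297 (9.76%) higher, against 23.1% and 21.5% of all genes. Without TMM factors, 32.1% of the calls over all genes were rises in place of 51.9%, and 35% of the shared risers were higher and 13.4% lower. From 10 nM to 100 nM few genes were called in the average of both cytokines, which can hide a step of 1 cytokine. The mean level of Ggt1 went from 297 to 284 CPM with mIL-21 and from 262 to 116 CPM with 21h10. That of Gzma went from 3232 to 3005 CPM with mIL-21 and from 3372 to 4704 CPM with 21h10. Of the risers, 29 (1.22%) were higher and 113 (4.76%) lower at 100 nM, and of the fallers, 19 (0.624%) were higher and 6 (0.197%) lower, against 0.881% and 2.06% of all genes. These counts rest on single libraries. Leaving out each library in turn gave 12 to 74 risers higher and 44 to 252 lower, and 3 to 64 fallers higher and 1 to 26 lower, with the highest values without unstimulated library 1 of experiment 2 (library 2 for fallers lower). The lowest were reached without library 2 of 100 nM mIL-21 (risers higher), of 10 nM mIL-21 (fallers higher) or of 100 nM 21h10 (the others). For the step to 1 nM, fallers that were higher numbered 152 without library 2 of 100 pM 21h10. For the cytokines, fallers lower with 21h10 numbered 366 without library 2 of 1 nM 21h10, and fallers higher 99 without library 2 of 10 nM mIL-21.

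Averaged over the 4 doses, Socs3 was 0.68 higher on the log2 scale with 21h10 than with mIL-21 (adjusted p = 2.19e-12). It was 2.33 higher at 1 nM than at 100 pM (adjusted p = 1.4e-17). For Serpinb5 the differences were 2.02 (adjusted p = 2.07e-18) and 4.21 (adjusted p = 9.97e-21), and for Il10 1.57 (adjusted p = 7.91e-14) and 3.68 (adjusted p = 1.74e-16). At 10 nM, log2 fold changes against unstimulated cells with 21h10 and mIL-21 were 4.66 and 4.77 for Socs3 and 8.20 and 8.24 for Serpinb5. At 100 nM they were 4.41 and 4.58 for Socs3 and 7.93 and 8.18 for Serpinb5. For Il10 they were 8.46 and 8.61 at 10 nM and 8.90 and 8.23 at 100 nM. The higher levels of Socs3 and Serpinb5 with 21h10 were therefore seen at 100 pM and 1 nM only. In the average over the 4 doses, 17 of the 18 early STAT3 target genes were called higher with 21h10 and none lower. Of the 28 interferon-stimulated genes, 19 were called lower and 1 higher. In contrast, 24 of 28 ATF4 targets and tRNA synthetases were higher with 21h10 although few of them were shared genes. DNA replication genes, with 3 higher and 2 lower of 33, had few calls between the cytokines.

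Genes that opposed between experiments numbered 3078 (21.2% of those tested), 1865 higher with cytokine in all 4 groups of experiment 1 and lower in all 4 of experiment 2 (12.8%), and 1213 the other way (8.35%). Of the 3078, 2045 were also called in both experiments taken alone, 923 in experiment 1 only, 70 in experiment 2 only and 40 in neither. A difference between the responses past the threshold was required for this class and is no result, and 64.7% of all genes had such a difference. The low-dose and the high-dose experiment each had their own unstimulated cells, and whether the opposition followed dose or experiment cannot be told apart. Ndrg1 (chr15:66929318-66969641), a stress and hypoxia response gene, was at 14.9 and 15.9 CPM without cytokine and 281 to 466 CPM (median 431) with it in experiment 1, and at 85.9 and 89.4 CPM against 9.33 to 28.8 CPM (median 18.0) in experiment 2. Its response was 7.04 lower on the log2 scale in experiment 2 than in experiment 1 (adjusted p = 1.18e-14). Unstimulated cells of experiment 2 held more Ndrg1 mRNA than those of experiment 1, and treated cells of experiment 1 more than those of experiment 2.

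Itga7, a laminin-binding integrin subunit, and Vldlr, a lipoprotein receptor, rose by 6.82 and 5.54 in experiment 1 and were at -1.13 and -2.18 in experiment 2. Itga7 was at 0.295 and 0.421 CPM without cytokine and 36.4 to 41.5 CPM (median 39.1) with it in experiment 1. For Itga7, experiment 2 had 13.4 and 18.2 CPM against 3.497 to 11.7 CPM (median 6.67). Vldlr was at 1.02 and 1.24 CPM without cytokine and 39.1 to 83.7 CPM (median 52.1) with it in experiment 1. For Vldlr, experiment 2 had 12.6 and 14.6 CPM against 1.44 to 7.98 CPM (median 2.91). Selenbp1 and Selenbp2, near-identical copies whose reads cannot be told apart, and Plcxd1, which shares 29.3% of its exonic bases with Gtpbp6 on the opposite strand, completed the 6 named genes of this direction. The mean log2 changes of Plcxd1 were 5.05 in experiment 1 and -1.94 in experiment 2.

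Of 21 glycolysis genes, 16 were opposed and higher in experiment 1, and only Aldoc was a shared riser. The list median was 1.51 in experiment 1 and -0.62 in experiment 2. Aldoa (chr7:126795234-126800994), a glycolytic aldolase, was at 1375 and 1376 CPM without cytokine, 4920.3 and 4877 CPM at 100 pM mIL-21, 5407 and 5339 CPM at 100 pM 21h10, 5027 and 5645 CPM at 1 nM mIL-21 and 5096 and 4846 CPM at 1 nM 21h10 in experiment 1. In experiment 2 it was at 1703 and 1444 CPM without cytokine, 1019 and 1301 CPM at 10 nM mIL-21, 1154 and 1032 CPM at 10 nM 21h10, 1104 and 1157 CPM at 100 nM mIL-21 and 1459.7 and 1302 CPM at 100 nM 21h10. All 8 treated libraries of experiment 1 were above their unstimulated pair, and 7 of the 8 of experiment 2 were below theirs. The glucose transporter gene Slc2a1 was at 73.0 and 73.3 CPM without cytokine and 281 to 519.7 CPM (median 382) with it in experiment 1. For Slc2a1, experiment 2 had 137.5 and 158 CPM against 92.1 to 153 CPM (median 109), and its groups overlapped in experiment 2 but not in experiment 1. Pdk1, a kinase that holds back pyruvate oxidation, was at 99.3 and 104 CPM without cytokine and 282 to 417 CPM (median 333) with it in experiment 1. For Pdk1, experiment 2 had 324 and 338 CPM against 118 to 172 CPM (median 148).

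Of 40 cytoplasmic ribosomal protein genes, 30 were opposed in the same direction, with medians of 0.21 in experiment 1 and -0.37 in experiment 2, and between 28 and 32 under other scalings. For example, Rplp0 had 0.39 in experiment 1 and -0.26 in experiment 2. In the other direction stood 10 of 21 genes of ER chaperones and the unfolded protein response, with medians of -0.55 and 0.20. Hspa5, the chaperone BiP, was at 799 and 821 CPM without cytokine and 258 to 619 CPM (median 296) with it in experiment 1, and at 433 and 435 CPM against 682 to 816 CPM (median 732) in experiment 2, and its response was 2.03 higher in experiment 2 (adjusted p = 2.09e-14).

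The named opposed genes on the higher side in experiment 2 were 4 small nucleolar RNA genes, Fhl2 and Trmt61a. Of these, Trmt61a (adjusted p = 0.229), Snord87 (adjusted p = 0.28) and Snord99 (adjusted p = 0.223) were not called in experiment 2 by edgeR. Fhl2 (chr1:43123071-43198343), a LIM-domain cofactor, had mean log2 changes of -0.46 in experiment 1 and 3.16 in experiment 2, and Trmt61a, a tRNA methyltransferase subunit, of -3.25 in experiment 1 and 0.27 in experiment 2. Snora31, Snord57, Snord87 and Snord99, which guide the modification of rRNA, were at 5.14 CPM or less in every library, so that their changes rest on few reads. Snord57 and Snord99 lie wholly within exons of Nop56 and Snhg12, with which they share reads.

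**Figure D5:**
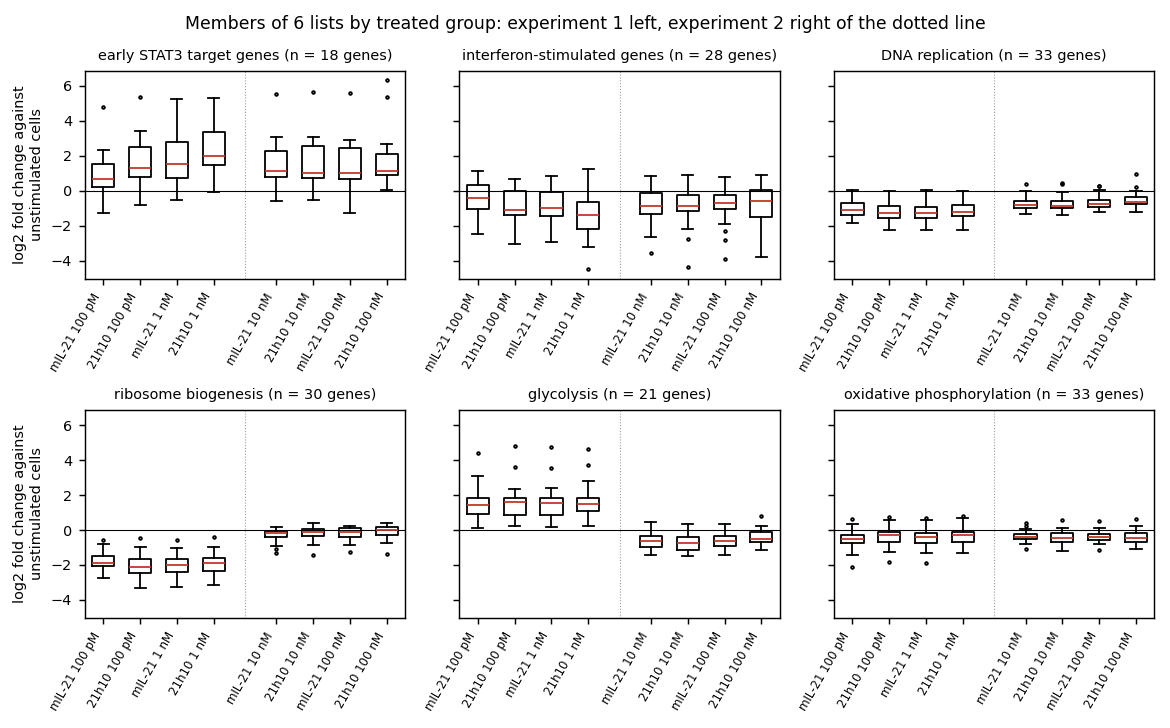
Boxes show the log2 fold change of the members of 6 gene lists against unstimulated cells of the same experiment in each treated group (line at the median, box from the lower to the upper quartile, whiskers of at most 1.5 times the box height, points beyond), with experiment 1 left and experiment 2 right of the dotted line. The medians of STAT3 targets lie above and those of DNA replication genes below 0 in all 8 groups, whereas those of glycolysis genes lie above 0 in experiment 1 and below 0 in experiment 2.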

How the data were processed

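mRNA libraries of activated mouse CD8+ T cells (KAPA mRNA HyperPrep, sequenced on a NovaSeq) were deposited as 1 table per library, with a read count and an RPKM value for each RefSeq transcript. For these counts and RPKM values the submitters' processing notes name TopHat2 2.0.11, Bowtie2 2.2.6, SAMtools 0.1.8, bedtools 2.25.0, edgeR and the mouse build mm10 (GRCm38). The counting tool and its use of strand are not given in the sources used here, so reads of overlapping genes on opposite strands may not be separable, and reads of near-identical copies may be split. RPKM values made by the authors are read counts divided by transcript length and by the mapped reads of the library.

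Each table listed 31682 transcripts. The longest transcript stood for each of 23992 symbols, since counts of transcripts of a gene can share reads. For 646 of the 4343 symbols with several transcripts the longest was not the most read. Genes were kept by filterByExpr (minimum count 10, minimum total 15), which left 14530. Counts as deposited were tested with edgeR 4.0.16 (R 4.3.3), with TMM factors, quasi-likelihood fits and Benjamini-Hochberg adjustment at 0.05. The pooled fit had terms for experiment and for treated against unstimulated cells. Single groups and dose differences were fitted within each experiment over its 5 groups. A fit of all 10 groups gave the differences between experiments and between cytokines. On simulated counts with 100 genes changed by 1 and 100 by 0.5 on the log2 scale, the pooled test called 100% and 99%, and 6.83% of the unchanged genes had the same sign in all 8 groups. Each changed gene had the same change in all 8 groups there. The simulated spread was that within experiments (common dispersion 0.0019 and 0.00788), against 0.0532 in the pooled fit of the data. These shares therefore describe an easier setting than the data.

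The members and the gene lists were chosen with earlier results of these data known, so counts over lists are descriptions and no test was made on a list. Named genes had the same direction in all 8 treated groups, passed the pooled test, did not overlap between treated and unstimulated libraries of either experiment and averaged no less than 1 RPKM in the higher condition in both. The 15 largest rises and 12 largest falls were taken, and, of the opposed genes with that RPKM, the 6 with the largest difference in each direction. List genes were named with a verb of change only under the same conditions, and some items are not reported here. The cytokine and dose comparisons within the shared genes contrast treated groups, and the unstimulated libraries enter through the shared filter, scaling and estimate of spread. Promoter windows came from RefSeq tables (20 of the 27 named risers and fallers had one), and copies were found with BLAST 2.17.0. Duplicate libraries differed beyond sampling noise in all 10 groups and were counted as 2 samples. Alternatives were DESeq2 1.42.0, limma 3.58.1 on log2(RPKM + 1), no filter, other library sizes, the most-read transcript, a size limit, a replicate block and each library left out in turn. The scaling by mapped reads and the most-read transcript were added after the data were seen.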

Additional observations from a re-analysis of the deposited data

Results flagged for a closer look

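For 33 of the 39 named genes the response in experiment 2 differed from that in experiment 1 (10-group edgeR quasi-likelihood fit, adjusted over all genes). Of all genes tested, 64.7% had such a difference, and the opposed genes among the 39 were chosen for it. All differences are log2 responses of experiment 2 minus experiment 1, and dose range and experiment cannot be told apart. Groups of 2 libraries were too small to look for single libraries that stand apart.

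Among the 15 named risers, 9 differed, where 64.7% of all genes tested did. The rise was larger in experiment 2 for Il10 (4.38), Gzma (1.83), Hlx (1.69), Ifitm1 (1.42) and Ggt1 (0.78). It was smaller for Fxyd7 (-2.87), Tgfb3 (-2.57), Itgam (-1.19) and Socs3 (-0.31).

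All 12 named fallers differed. Cxcl10 fell less in experiment 2, by a difference of 3.34. The falls were deeper in experiment 2 for Utf1 (-4.92), Cd83 (-3.03), H2-Aa (-2.64), Hemgn (-2.55), Cpd (-2.21), Cd74 (-2.20), Serpinc1 (-2.05), Xcl1 (-1.99), Ifi44 (-1.51), Pdia5 (-1.29) and Lad1 (-1.19). Utf1 and H2-Aa had treated libraries with no read in experiment 2, so their fitted differences depend on the prior count.

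The 12 named opposed genes were chosen for this difference, which is a description. It was -7.95 for Itga7, -7.94 for Selenbp1, -7.72 for Vldlr, -7.62 for Selenbp2, -7.04 for Ndrg1 and -7.00 for Plcxd1. In the other direction it was 4.39 for Snord87, 4.26 for Snora31, 4.14 for Snord99, 3.82 for Snord57, 3.62 for Fhl2 and 3.52 for Trmt61a.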

How the results depend on the processing

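The counts of shared genes (2373 higher, 3043 lower) and of pooled calls (3362 and 4668) stayed within 1.5 times under DESeq2, no filter, the most-read transcript and the 10-group fit. limma on log2(RPKM + 1) gave 2137 pooled and 1254 shared rises, 557 opposed genes higher in experiment 2 (main 1213), 1227 genes higher in both experiments (2017), 1164 higher and 4029 lower with 21h10 than with mIL-21 (2206 and 2311), and 1748 higher at 1 nM than at 100 pM (3359). Scaling by mapped reads gave 617 opposed genes higher in experiment 2, 1243 and 4127 for the cytokines and 2089 and 5048 for the step to 1 nM (3359 and 3118). Reads on genes without TMM factors gave 4881 genes lower at 1 nM. A size limit of 1 on the log2 scale left 1537 and 1035 pooled and 1226 and 769 shared genes, and experiment 1 alone called 5896 genes higher. The step from 10 nM to 100 nM (128 higher, 299 lower) moved under most of these settings, with 239 higher under DESeq2, 282 and 528 without a filter, 43 and 123 with limma and 68 higher by mapped reads. The cause of these shifts was not tested. Of the main shared genes, 5043 of 5416 (93.1%) were shared under DESeq2, 3873 (71.5%) with limma and 4731 (87.4%) by mapped reads.

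Leaving out each library in turn gave 3064 to 3947 pooled rises and 3684 to 4729 falls, 2346 to 2739 shared rises and 2507 to 3097 falls, 1667 to 1926 and 1199 to 1441 opposed genes, 1928 to 2234 and 1803 to 2543 genes called the same way in both experiments, 1955 to 2760 and 1739 to 2550 for the cytokines and 2763 to 3326 and 2673 to 3538 for the step to 1 nM. For the step to 100 nM it gave 47 to 360 and 100 to 675, highest without unstimulated library 1 and lowest without library 2 of 10 nM 21h10 (higher) or of 100 nM 21h10 (lower). Of 1092 values for the named genes, 1 changed its call (Snord99) and none its direction. With duplicate number as a replicate block the shared counts were 2386 and 3023, the pooled counts 3237 and 4520, and no call count moved by over 1.5 times. Deviations of same-numbered libraries correlated at -0.053 to 0.032 in experiment 1 and -0.153 to 0.196 in experiment 2, so the numbers were not taken to pair libraries. Genes under about 1 CPM rest on few reads.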
